A study of Homo sapiens with 18 samples.

Results

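The genes described here mostly encode protein subunits of the mitochondrial respiratory chain and ATP synthase. They were chosen by symbol from the deposited tables of LNCaP cells, after genes under 10 counts summed over all libraries were dropped, and comprised 93 of 34912 genes: 13 carried by the mitochondrial genome and 80 by the nucleus. The cells, an androgen-responsive line from a prostate cancer metastasis, received a pool of control siRNAs or a pool against KLF5 or NFYA. They were kept in 5% charcoal-stripped serum, which is depleted of steroids, for 48 h, and then given the synthetic androgen R1881 at 10 nM or its vehicle, 96% ethanol, for 24 h. Each siRNA and treatment formed 1 of 6 groups of 3 samples. Of the 18 samples, 17 were analysed here, and siKLF5 with vehicle was represented by replicates 2 and 3 only. All groups shared the cell line, the steroid-depleted serum and transfection with siRNA. Whether replicates came from different cultures is not in the labels. The p-values therefore measure only the spread among these samples, which may be technical.

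Oxidative phosphorylation is the joint product of a pair of genomes. Complexes I, III and IV pump protons while electrons pass from NADH through ubiquinone and cytochrome c to oxygen, complex II feeds electrons in from succinate, and complex V, the ATP synthase, spends the proton gradient to make ATP. The mitochondrial genome supplies core membrane subunits of complexes I, III, IV and V from long transcripts that are cut into shorter RNAs. The nuclear genome supplies the remaining subunits, each from a promoter of its own, and all of complex II. NFYA is the subunit of NF-Y that contacts the CCAAT box, while KLF5 belongs to the Krüppel-like zinc-finger proteins and prefers GC-rich boxes.

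The mitochondrially encoded members lie at GRCh38 chrM:3307-15887 and share their template. In complex I they were MT-ND1, MT-ND2, MT-ND3, MT-ND4, MT-ND4L, MT-ND5 and MT-ND6. MT-CYB is the cytochrome b of complex III, MT-CO1, MT-CO2 and MT-CO3 form the catalytic core of complex IV, and MT-ATP6 and MT-ATP8 belong to complex V. MT-ND6 at chrM:14149-14673 is the only one of the 13 on the minus strand. MT-ATP8 and MT-ATP6 overlap by 46 bases at chrM:8527-8572, and MT-ND4L and MT-ND4 by 7 bases at chrM:10760-10766, so reads there could be divided between the genes of a pair. Genes that overlap on the same strand can share an mRNA molecule, so mitochondrial mRNAs are counted below per gene and not per molecule. The larger overlap is shown because the estimates of both ATP synthase genes depend on it. It is read from the GENCODE v29 transcripts, 5′ to 3′ on the plus strand, with the start codon of MT-ATP6 in capitals.

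MT-ATP8 and MT-ATP6 shared bases: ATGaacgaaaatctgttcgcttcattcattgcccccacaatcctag

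The nuclear-encoded members belong by symbol to complex I (38 genes), complex II (4), complex III (9), complex IV (12) and complex V (17). NDUFA4, counted here with complex I for its symbol, is now assigned to complex IV. Related genes also came in by symbol and are counted here: COX7A2L, NDUFA4L2, ATP5S and ATP5J2-PTCD1, whose symbol joins those of ATP5J2 and PTCD1. RefSeq promoters (GRCh38.p14) were found for 63 of the 80. In the 250 bases before the start, on either strand, CCAAT occurred in 20 of the 63 promoters (31.7%) and in 33.0% of all 27305 promoters. The ETS-type motif CCGGAAG occurred in 16 (25.4%, against 8.82% of all promoters), the palindromic NRF1 motif (GCGC, then AT, then GCGC) in 3 (4.76% against 1.13%), and the GC box GGGCGG in 35 (55.6% against 42.3%). AGAACA, the core of a steroid receptor element, occurred in 6 (9.52% against 12.4%). These matches describe letters and not binding. The promoters below are those of members, among the 63 only, with strong responses described later, together with ATP5G1, one of 3 members with 4 CCAAT matches. Each is given 5′ to 3′ along its gene, with CCAAT or its reverse complement, and the NRF1 motif, in capitals.

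ATP5G1, chr17:48892537-48892786, plus strand: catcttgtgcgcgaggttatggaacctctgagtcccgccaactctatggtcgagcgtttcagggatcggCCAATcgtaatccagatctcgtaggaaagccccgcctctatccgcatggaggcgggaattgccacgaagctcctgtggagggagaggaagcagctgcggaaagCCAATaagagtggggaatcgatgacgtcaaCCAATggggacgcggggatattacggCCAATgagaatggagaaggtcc
COX7A2L, chr2:42361218-42361467, minus strand: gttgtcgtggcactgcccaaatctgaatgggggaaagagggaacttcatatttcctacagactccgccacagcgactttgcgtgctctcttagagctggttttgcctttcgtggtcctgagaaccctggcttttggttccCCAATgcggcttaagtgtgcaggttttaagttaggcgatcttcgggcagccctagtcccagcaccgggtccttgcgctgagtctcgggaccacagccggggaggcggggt
NDUFB4, chr3:120596086-120596335, plus strand: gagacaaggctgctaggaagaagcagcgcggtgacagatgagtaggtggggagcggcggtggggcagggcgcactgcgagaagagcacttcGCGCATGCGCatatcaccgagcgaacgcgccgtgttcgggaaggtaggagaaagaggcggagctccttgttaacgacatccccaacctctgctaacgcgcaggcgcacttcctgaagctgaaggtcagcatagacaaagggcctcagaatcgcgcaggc
NDUFC1, chr4:139302552-139302801, minus strand: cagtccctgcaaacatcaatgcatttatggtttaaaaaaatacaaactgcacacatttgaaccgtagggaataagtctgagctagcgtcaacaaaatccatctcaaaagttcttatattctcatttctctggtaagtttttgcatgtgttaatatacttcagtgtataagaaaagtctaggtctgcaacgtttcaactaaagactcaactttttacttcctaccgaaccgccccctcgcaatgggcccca

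Libraries held 4416653 to 6872421 estimated counts. The epithelial keratin KRT8 stood at 418 to 4166 CPM (counts relative to library size, scaled by TMM over the 17 libraries), and KLK3, which encodes prostate-specific antigen, at 33.2 to 4244 CPM. Basal and blood markers summed to at most 0.468 and 0.703 CPM. KRT5 and CD3E were at 0 in all libraries, whereas KRT14 reached 0.468 CPM and PTPRC 0.536 CPM. Endothelial and mesenchymal markers summed to at most 9.49 and 27.3 CPM, with CDH5 at 0. Endothelial markers summed to 8.93 to 9.49 CPM in control vehicle and 2.45 to 4.13 CPM in control R1881. Mesenchymal markers summed to 21.9 to 23.1 CPM and 12.1 to 16.6 CPM in the same groups, and the part of both in the androgen comparisons was not tested. NFYA stood at 68.3, 71.2 and 73.4 CPM in control vehicle and at 47.9, 43.9 and 46.3 CPM with siNFYA. In R1881 it stood at 84.6, 89.8 and 86.8 CPM with control siRNA and at 58.6, 56.7 and 53.4 CPM with siNFYA, so a large part of the transcript remained. KLF5 had 33, 30 and 22 counts in control vehicle, against 7 in siKLF5 vehicle replicate 2 and 22 in replicate 3. KLF5 was not called lower in vehicle (log2 -1.08, SE 0.346, adjusted p = 0.149, edgeR). In R1881 it had 148, 135 and 164 counts with control siRNA and 59, 61 and 65 with siKLF5 (log2 -1.15, SE 0.163, adjusted p = 0.000228, edgeR). The library labelled siKLF5 vehicle replicate 3 thus did not show its knockdown clearly, and counts of member calls that rest on it are given with and without it. The motif medians, the pathway lists and the counts over all 3 androgen arms are given with it only. In siNFYA vehicle replicate 3 the gene AC010970.1 took 2.85% of counts, against at most 0.424% elsewhere.

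Respiratory chain transcripts were abundant, and those of mitochondrial origin dominated. On the TPM scale (a share of all transcripts in a library, corrected for length), the 13 mitochondrially encoded members summed to 48212, 40605 and 41627 in control vehicle, and the 80 nuclear-encoded members to 26743, 27374 and 27387. In that group 12 of the 13 mitochondrial mRNAs had a higher mean TPM than any nuclear-encoded member. MT-CO1 led with 5914 TPM, while NDUFB4, an accessory subunit of complex I, led the nuclear genes with 1438 TPM, followed by ATP5B, the catalytic beta subunit of ATP synthase, with 1188 TPM. MT-ND5 was the lowest of the 13 at 1125 TPM. Annotated transcripts and equal mapping are assumed by this scale, and the labels do not state how RNA was selected for the libraries.

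Where subunits come in several isoforms, LNCaP cells used the widely expressed ones. COX4I1, the common form of cytochrome oxidase subunit 4, had 829 TPM in control vehicle, whereas COX4I2, known from lung and hypoxia, was listed at 0 in all 17 libraries. COX6A1 had 760.1 TPM and COX8A 830.1 TPM, while COX6A2 of heart and muscle summed to 0 counts and COX8C to 3 counts over all libraries. COX6B1 and COX7A2 had 447 and 382 TPM, against 5.01 summed counts for COX6B2 and 5 for COX7A1. COX7B2 was present at 6.17 TPM beside 166 TPM for COX7B. UQCRH, the hinge protein of complex III, had 844 TPM and its near-copy UQCRHL 0.519 TPM, so that UQCRHL reads may come from UQCRH. The genes for the membrane c subunit of ATP synthase, which yield the same mature protein, stood at 314 (ATP5G1), 661 (ATP5G2) and 386 TPM (ATP5G3).

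The ratio of the classes within a library does not depend on scaling between libraries. In control vehicle the summed TPM of mitochondrially encoded members was 1.80, 1.48 and 1.52 times that of the nuclear-encoded members. R1881 libraries with control siRNA had ratios of 1.37, 1.25 and 1.28, below every vehicle library. With siNFYA the ratios were 2.48, 2.33 and 2.25 in vehicle and 2.38, 2.32 and 2.45 in R1881. With siKLF5 they were 2.09 and 2.80 in vehicle and 2.78, 2.27 and 2.07 in R1881. Every knockdown library therefore lay above every control library, and the siNFYA and siKLF5 ranges overlapped. The nuclear sum varied less than the mitochondrial sum, from 23512 to 27387 TPM against 31093 to 69063 TPM. In bulk RNA, more transcript per cell and a changed make-up of the cells cannot be told apart.

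**Figure D1:**
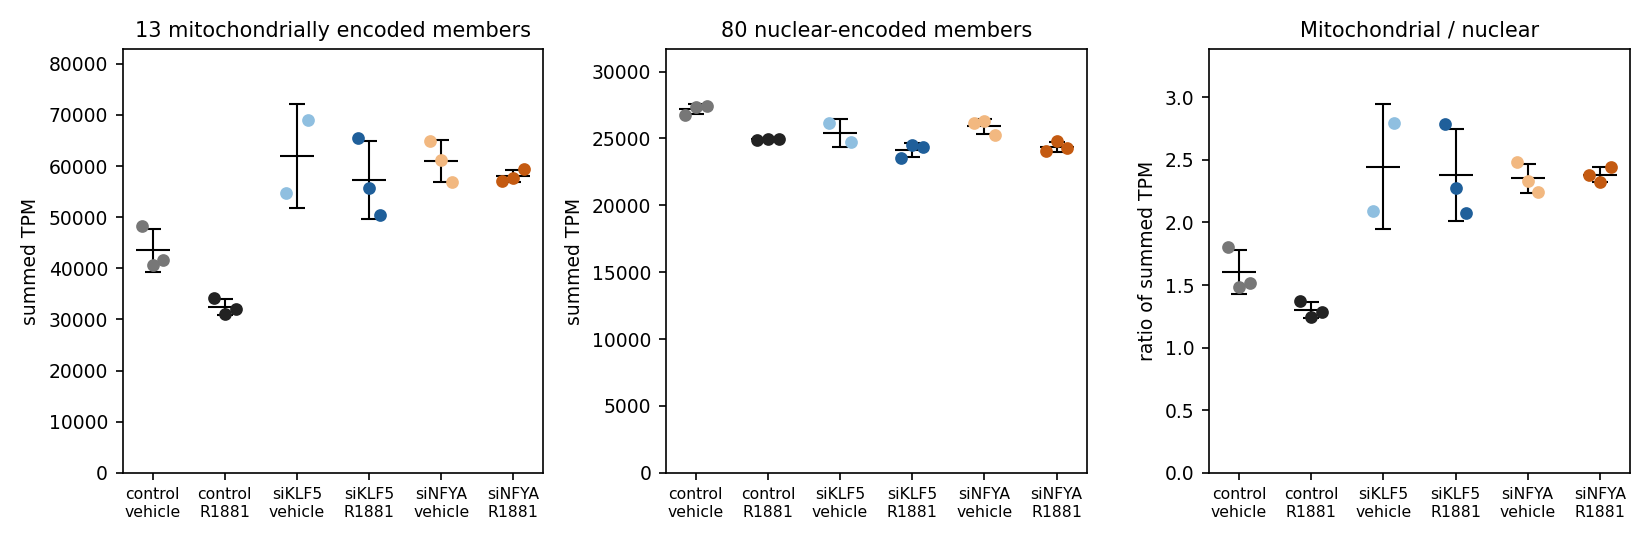
Summed TPM of the 13 mitochondrially encoded members (left), of the 80 nuclear-encoded members (middle), and their ratio (right), by group. Each point is 1 library, with the mean and SD as bars; the knockdown libraries have ratios of 2.07 to 2.80 and the control libraries of 1.25 to 1.80.

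Retained introns moved with this ratio in part. Transcripts annotated as retained introns held 1.96 to 2.23% of counts in control libraries, 2.28 to 2.68% with siKLF5 and 2.56 to 3.05% with siNFYA. In control libraries they held 2.15 to 2.23% in vehicle and 1.96 to 1.98% in R1881, also the order of the ratio. With siNFYA these transcripts held 2.65 to 3.05% in vehicle and 2.56 to 2.66% in R1881, although the ratios of these groups overlapped. Their part in the result was not tested. Among nuclear-encoded members alone, retained introns took group means of 1.96 to 2.22% of TPM. Symbols for nuclear copies of mitochondrial genes held 0.447 to 0.709% as many counts as the mitochondrial genes themselves.

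The comparison of siNFYA with control siRNA in vehicle asks which respiratory genes changed with this siRNA pool without androgen. All 13 mitochondrial mRNAs rose, by log2 0.36 (MT-ATP8) to 0.66 (MT-ATP6), with a median of 0.56, whereas 2 nuclear-encoded members rose and 5 fell of 79 tested, with a median of -0.0021. Over all 12601 genes tested 6.67% were called higher and 6.79% lower (edgeR quasi-likelihood test, adjusted p under 0.05), and the median gene changed by -0.0014. UQCRHL was the member too low to be tested, and it stayed untested in each comparison below.

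MT-CO1, the oxygen-reducing subunit of complex IV, stood at 5388, 4724 and 4975 CPM in control vehicle and at 8284, 7698 and 7148 CPM with siNFYA. The groups did not overlap, and the rise was 1.54-fold (log2 0.63, SE 0.0453, adjusted p = 3.07e-09, edgeR). MT-CYB rose from 1722, 1449 and 1534 CPM to 2379, 2324 and 2149 CPM (log2 0.55, SE 0.0503, adjusted p = 6.48e-08, edgeR). MT-ATP6, the proton channel subunit of ATP synthase, rose from 803, 693 and 746 CPM to 1224, 1156 and 1151 CPM. MT-ND6, transcribed from the opposite strand, stood at 329.9, 282 and 297 CPM against 462, 427 and 341 CPM, again without overlap (log2 0.45, SE 0.0663, adjusted p = 6.1e-05, edgeR). The use of strand in counting was not given, so its counts may include reads from the plus strand. Libraries of the 2 groups were apart for all 13 genes, as they were upward for 13.9% and downward for 16.8% of all genes. The smallest rises were those of MT-ATP8 and of MT-ND3. MT-ATP8 overlaps MT-ATP6, which rose most, and the part of shared reads in their difference was not tested.

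In R1881 all 13 mRNAs were again higher with siNFYA than with control siRNA, by log2 0.73 (MT-ND3) to 0.95 (MT-CO2), with a median of 0.90 (2.63% of all genes called higher and 3.33% lower). MT-CO1 stood at 4632, 4269.6 and 4447 CPM with control siRNA and at 8139, 8183 and 8276 CPM with siNFYA, a 1.85-fold rise (log2 0.89, SE 0.0455, adjusted p = 2.49e-12, edgeR). MT-CYB stood at 1432, 1324 and 1322 CPM against 2426, 2556 and 2608 CPM. Both genes differed far more between than within groups. No nuclear-encoded member passed in edgeR, DESeq2 or limma, while 5 were higher and 3 lower at an unadjusted p under 0.05 in edgeR. Their median change was 0.02.

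With siKLF5 a similar pattern was seen, although KLF5 itself was not called lower in vehicle. In vehicle 11 of 13 mitochondrial mRNAs rose (median 0.50, 0.77% of 12733 genes called higher), and MT-ND3 (log2 0.32, adjusted p = 0.0901, edgeR) and MT-ATP8 (0.47, adjusted p = 0.12) did not pass. MT-CO1 stood at 6750.0 and 7793 CPM in siKLF5 vehicle replicates 2 and 3, above all 3 control libraries (log2 0.53, SE 0.0718, adjusted p = 0.000269). The higher value belonged to replicate 3, the library whose KLF5 count was like that of a control. Without replicate 3, 5 of the 13 passed, with a median of 0.34. Without replicate 2 all 13 passed, with a median of 0.63. The remaining library of the group is then assumed to vary like the other groups. On the log2(TPM + 1) scale none passed with limma, although all 13 were above 0.

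In R1881 all 13 were higher with siKLF5, by log2 0.62 (MT-ND3) to 0.93 (MT-ND1), with a median of 0.86 (0.832% of all genes called higher and 0.55% lower). MT-CO1 stood at 9051, 7733 and 6997 CPM against 4632, 4269.6 and 4447 CPM with control siRNA (log2 0.85, SE 0.0655, adjusted p = 3.32e-08, edgeR). MT-CYB stood at 2856, 2467 and 2172 CPM against 1432, 1324 and 1322 CPM. In both cases the lowest siKLF5 library lay well above the highest control library. No nuclear-encoded member passed in edgeR, DESeq2 or limma. At an unadjusted p under 0.05 in edgeR, 4 were higher and 7 lower.

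**Figure D2:**
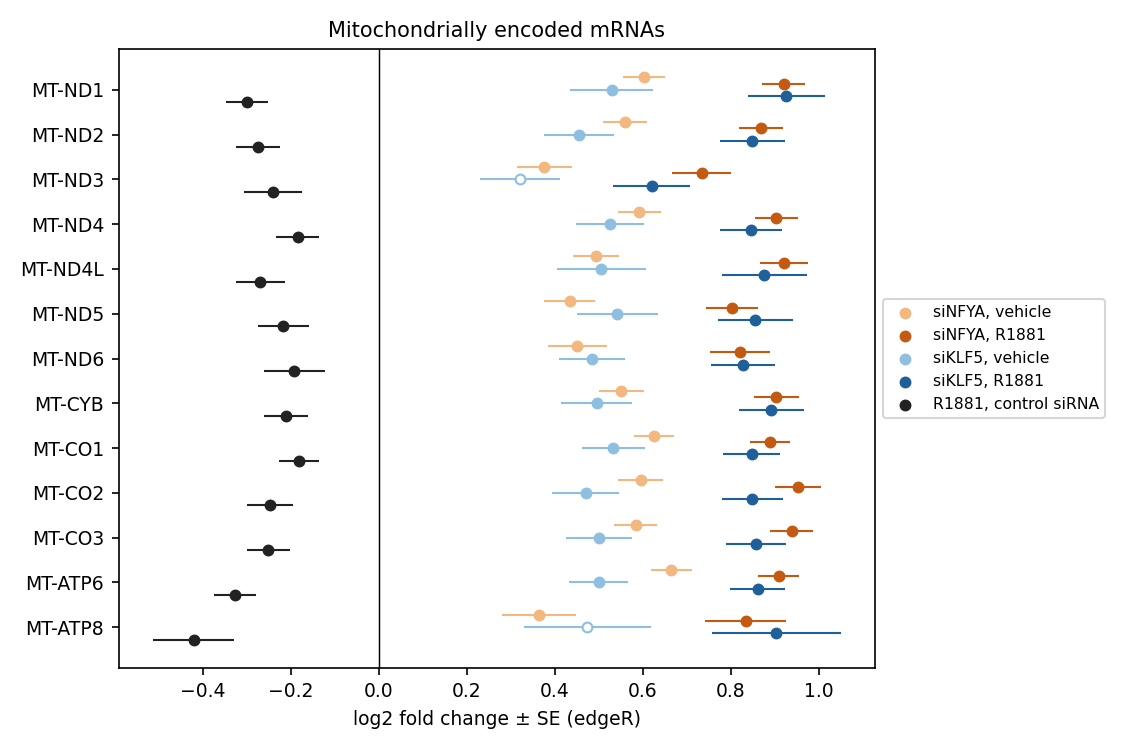
Log2 fold change with its standard error (edgeR, x axis) of each mitochondrially encoded mRNA in 4 knockdown comparisons and in R1881 against vehicle with control siRNA. Filled points passed adjusted p under 0.05 and open points did not; all 13 genes lie right of 0 in the knockdown comparisons and left of 0 in the androgen comparison.

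Both knockdowns were set against the same control libraries, so their likeness is not independent. Compared directly, siNFYA and siKLF5 differed in none of the 13 mitochondrial mRNAs, either in vehicle or in R1881, by edgeR, DESeq2 or limma. At an unadjusted p under 0.05 in edgeR, 1 was higher with siNFYA in vehicle and 0 in R1881. The differences ran from log2 -0.12 to 0.16 in vehicle and from -0.06 to 0.12 in R1881. Their 95% intervals, from the standard errors and a normal distribution, lay, over the 13 genes, within -0.40 to 0.29 in vehicle and -0.33 to 0.29 in R1881. Among nuclear-encoded members, 4 were higher with siNFYA in vehicle (2.35% of 12922 genes called higher and 3.64% lower, against 1.49% and 2.33% in R1881): UQCRH (log2 0.20), COX8A (0.23), SDHD (0.24), which anchors complex II in the membrane, and ATP5D (0.33). Leaving out siKLF5 vehicle replicate 3 removed all 4 calls, and leaving out replicate 2 raised the count to 19.

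The few nuclear-encoded members that changed with siNFYA in vehicle came from several complexes. NDUFB4 stood at 420.0, 437 and 412 CPM in control libraries and at 358, 354 and 349 CPM with siNFYA (log2 -0.25, SE 0.0373, adjusted p = 7.56e-05, edgeR). NDUFA4 fell from 219, 235 and 238 CPM to 193, 206 and 181 CPM (log2 -0.24, SE 0.0502, adjusted p = 0.0023, edgeR). The groups were separate for both genes. UQCRB, a complex III subunit that binds ubiquinone, NDUFC2 of complex I and ATP5L of the ATP synthase membrane part also fell (log2 -0.19, -0.19 and -0.17). Their adjusted p was 0.0228, 0.0358 and 0.0331 (edgeR). ATP5D, the delta subunit of the ATP synthase stalk, rose from 115, 117 and 118 CPM to 145, 136 and 130.2 CPM (log2 0.25, SE 0.0562, adjusted p = 0.00466, edgeR). ATP5G1 rose slightly, from 60.9, 60.2 and 59.9 CPM to 66.6, 69.6 and 68.5 CPM (log2 0.19, adjusted p = 0.0426), a call lost when any 1 library was left out. The UQCRB call was lost without control vehicle replicate 1 or 2 or siNFYA vehicle replicate 3. For the other calls, NDUFC2 and ATP5L among them, the effect of leaving out a library is given below as a count only.

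Members with and without a CCAAT box in the promoter window were compared under siNFYA. Of the 20 tested members with CCAAT in the window, 1 rose (ATP5G1, with the 4 matches shown above) and 0 fell with siNFYA in vehicle, and their median change was 0.00. Of the 43 without it, 0 rose and 2 fell, with a median of -0.01. Those that fell were NDUFB4, whose promoter is shown above, and ATP5L. NDUFA4, UQCRB, NDUFC2 and ATP5D were not in the promoter table. In R1881 none of either set passed, with medians of 0.01 and 0.03. For siKLF5 in vehicle, the 35 members with GGGCGG had a median of -0.10 and the 28 without it also -0.10, and none of them passed. In R1881 the medians were -0.05 and 0.0048, and again none passed.

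With siKLF5 in vehicle the nuclear-encoded members leaned downward: 73 of 79 were below 0, with a median of -0.10 beside -0.01 for all genes. Only NDUFA4 passed (0.55% of all genes called lower), with 203 and 204 CPM against 219, 235 and 238 CPM in control libraries (log2 -0.18, SE 0.0439, adjusted p = 0.0416, edgeR). It was lost when control vehicle replicate 2 or 3 or either siKLF5 vehicle library was left out. Without siKLF5 vehicle replicate 2, 14 members passed downward, and without replicate 3 none did and 20 of 79 were above 0. The downward lean was thus larger in the library in which KLF5 was not clearly reduced.

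R1881 against vehicle with control siRNA shows the androgen response of these genes. All 13 mitochondrial mRNAs fell, by log2 0.18 (MT-CO1) to 0.42 (MT-ATP8) in size, and the libraries of the groups did not overlap for any of them, as was so downward for 33.0% of all genes. Over all genes 32.1% were called higher and 30.8% lower. Scaling matters here: the median of all genes was -0.01 with TMM and -0.25 with library totals. The mitochondrial median was -0.25 with TMM and -0.48 with library totals, which is 0.24 below the median gene under both. MT-ND1 fell from 1175, 982 and 1022 CPM to 891, 843 and 856 CPM (log2 -0.30, SE 0.0486, adjusted p = 8.34e-06, edgeR). MT-ATP8 stood at 177, 143 and 141 CPM in vehicle and 127, 103 and 115 CPM in R1881 (log2 -0.42, SE 0.0920, adjusted p = 0.000321).

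In the knockdown arms the median change of the mitochondrial mRNAs with R1881 was above that of the median gene, although MT-ATP6 with siNFYA (log2 -0.08) was below it. With siNFYA 5 of 13 (MT-ND4, MT-ND4L, MT-ND5, MT-ND6 and MT-CYB) were called higher in R1881 (31.2% of all genes called higher and 31% lower), but with library totals none was higher and 5 different ones (MT-ATP6, MT-CO1, MT-CO3, MT-ND1 and MT-ND2) were lower, so their direction depended on scaling. Relative to the median gene, the siNFYA median was 0.13 higher under both scalings. The 5 calls became 9 without siNFYA vehicle replicate 1, 8 without siNFYA R1881 replicate 1, 2 without siNFYA vehicle replicate 3 and 0 without siNFYA R1881 replicate 3. With siKLF5, where 30.7% of all genes were called higher and 28.4% lower, none passed in edgeR, DESeq2 or limma (1 higher at an unadjusted p under 0.05 in edgeR). The siKLF5 median was 0.10 above that of the median gene under both scalings. That count rose to 12 higher without siKLF5 vehicle replicate 3 and to 6 without siKLF5 R1881 replicate 3, and was 1 lower without siKLF5 vehicle replicate 2.

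The interaction of knockdown with R1881 tests the difference between these androgen responses. For siNFYA all 13 estimates were above 0, from log2 0.24 (MT-ATP6) to 0.47 (MT-ATP8), and 8 passed with edgeR, 10 with DESeq2 and 0 with limma on log2(TPM + 1), beside 0.333% of all genes called higher and 0.389% lower. MT-ND4L had the lowest adjusted p (log2 0.43, SE 0.0766, adjusted p = 0.00541, edgeR). Leaving out single libraries gave 1 to 12 calls, and the count fell to 1 without control R1881 replicate 2 and to 2 without siNFYA R1881 replicate 3. It was 3 without control R1881 replicate 3 or siNFYA vehicle replicate 2, and 4 without control vehicle replicate 1. For siKLF5 the estimates were of like size, 0.30 to 0.43, but none of the 13 passed in edgeR, DESeq2 or limma (0.0157% of all genes called higher and 0% lower). All 13 had an unadjusted p under 0.05 in edgeR, and 12 passed without siKLF5 vehicle replicate 3. No nuclear-encoded member passed for either knockdown in edgeR, DESeq2 or limma, with 6 higher and 3 lower (siNFYA) and 14 higher and 0 lower (siKLF5) at an unadjusted p under 0.05 in edgeR.

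**Figure D3:**
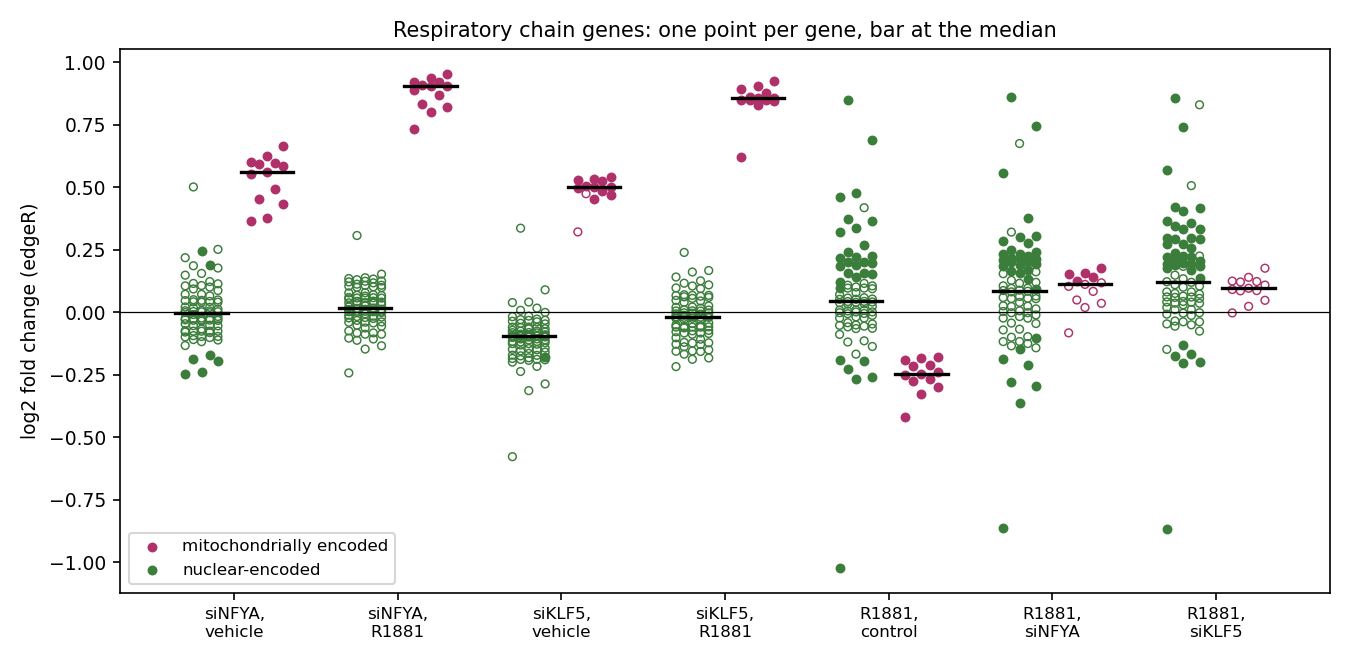
Log2 fold change (edgeR, y axis) of every tested member in 7 comparisons, nuclear-encoded in green and mitochondrially encoded in magenta, filled where adjusted p was under 0.05, with a bar at each median. The magenta medians are 0.56, 0.90, 0.50 and 0.86 in the knockdown comparisons, while the green medians stay between -0.10 and 0.02.

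Nuclear-encoded members answered androgen gene by gene. With control siRNA 24 of 79 were called higher and 6 lower with TMM, but 5 higher and 48 lower with library totals. Their direction as a class thus depended on scaling. The share of all genes called with library totals is not given here, so the 48 cannot be set against it. With TMM 32.1% of all genes were called higher and 30.8% lower, so the upward share was near that of all genes. Their median was 0.05 above that of all genes under both scalings. By complex, the calls with TMM were 12 higher and 3 lower of 38 in complex I, 0 and 1 of 4 in complex II, 2 and 0 of 8 in complex III, 5 and 0 of 12 in complex IV, and 5 and 2 of 17 in complex V.

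The 3 arms of R1881 against vehicle, with control siRNA, siNFYA and siKLF5, share no libraries. With TMM 19 nuclear-encoded members were higher and 4 lower in all 3 arms, beside 25.8% and 22.9% of 12554 genes, and none of the nuclear-encoded members was called in opposite directions. Of the mitochondrial members 5 were, lower with control siRNA and higher with siNFYA. With library totals the nuclear-encoded counts were 3 and 26, on the TPM scale 3 and 13, and with DESeq2 11 and 3. Shares of all genes under these other settings are not given here. NDUFC1, NDUFC2 and COX7A2L were higher in all arms, and NDUFB4, NDUFV1, SDHA and ATP5D lower, with TMM, library totals and TPM. DESeq2 gave the same calls except that of SDHA.

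NDUFB4 had the largest change of any member. It fell from 420.0, 437 and 412 CPM to 213, 205 and 207 CPM with control siRNA, 2.03-fold lower (log2 -1.02, SE 0.0397, adjusted p = 2.25e-17, edgeR). With siNFYA it stood at 358, 354 and 349 CPM in vehicle and 183, 207 and 195 CPM in R1881 (log2 -0.86), and with siKLF5 at 370.4 and 418 CPM against 228, 212 and 209 CPM (log2 -0.87). The R1881 libraries of all arms lay far below the vehicle libraries. A single protein-coding transcript, ENST00000184266, carried nearly all of it, with 1410, 1461 and 1362 TPM in control vehicle and 629, 609 and 614 TPM in control R1881.

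NDUFC1 and NDUFC2, accessory subunits of the membrane arm of complex I, moved the other way. NDUFC1 rose from 53.6, 48.2 and 54.2 CPM to 91.4, 97.3 and 93.0 CPM, 1.80-fold (log2 0.85, SE 0.0639, adjusted p = 1.67e-11, edgeR), with log2 0.86 in both knockdown arms. Most of its signal was on ENST00000394225, which the files class as a processed transcript, with 146, 113 and 126 TPM in control vehicle and 221, 227 and 239 TPM in R1881. NDUFC2 rose from 127, 134 and 133 CPM to 171, 188 and 185 CPM with control siRNA (log2 0.46). In the siNFYA arm it went from 111, 119.7 and 114 CPM to 174, 203 and 203 CPM (log2 0.74), and the difference between these arms did not pass (log2 0.29, adjusted p = 0.0954).

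COX7A2L, a factor that joins complexes III and IV into supercomplexes, rose from 91.6, 93.2 and 95.5 CPM to 126, 124 and 141 CPM (log2 0.48, SE 0.0646, adjusted p = 5.92e-07, edgeR). Its changes were log2 0.56 with siNFYA and 0.57 with siKLF5. In each arm all R1881 libraries lay above all vehicle libraries. NDUFV1, the subunit of complex I that binds NADH, fell from 159, 164 and 162 CPM to 137, 138 and 132 CPM with control siRNA (log2 -0.26). SDHA, the succinate-oxidising flavoprotein of complex II, fell from 115, 123 and 131 CPM to 110.4, 103 and 112 CPM (log2 -0.19), with siNFYA by 0.28 and with siKLF5 by 0.17 on the log2 scale. ATP5D fell by 0.27, 0.36 and 0.20 on the log2 scale in the 3 arms, and the siKLF5 call was lost without siKLF5 vehicle replicate 2 or siKLF5 R1881 replicate 2. The siKLF5 call of NDUFV1 was also lost without siKLF5 vehicle replicate 2.

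NDUFA4L2, a low paralog of NDUFA4 known as a hypoxia target, stood at 7.15, 5.88 and 4.30 CPM in control vehicle and 8.49, 8.44 and 11.1 CPM in R1881 (log2 0.69, SE 0.199, adjusted p = 0.0042, edgeR). It did not pass with siNFYA (0.32, adjusted p = 0.152) or siKLF5 (0.51, adjusted p = 0.0594).

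**Figure D4:**
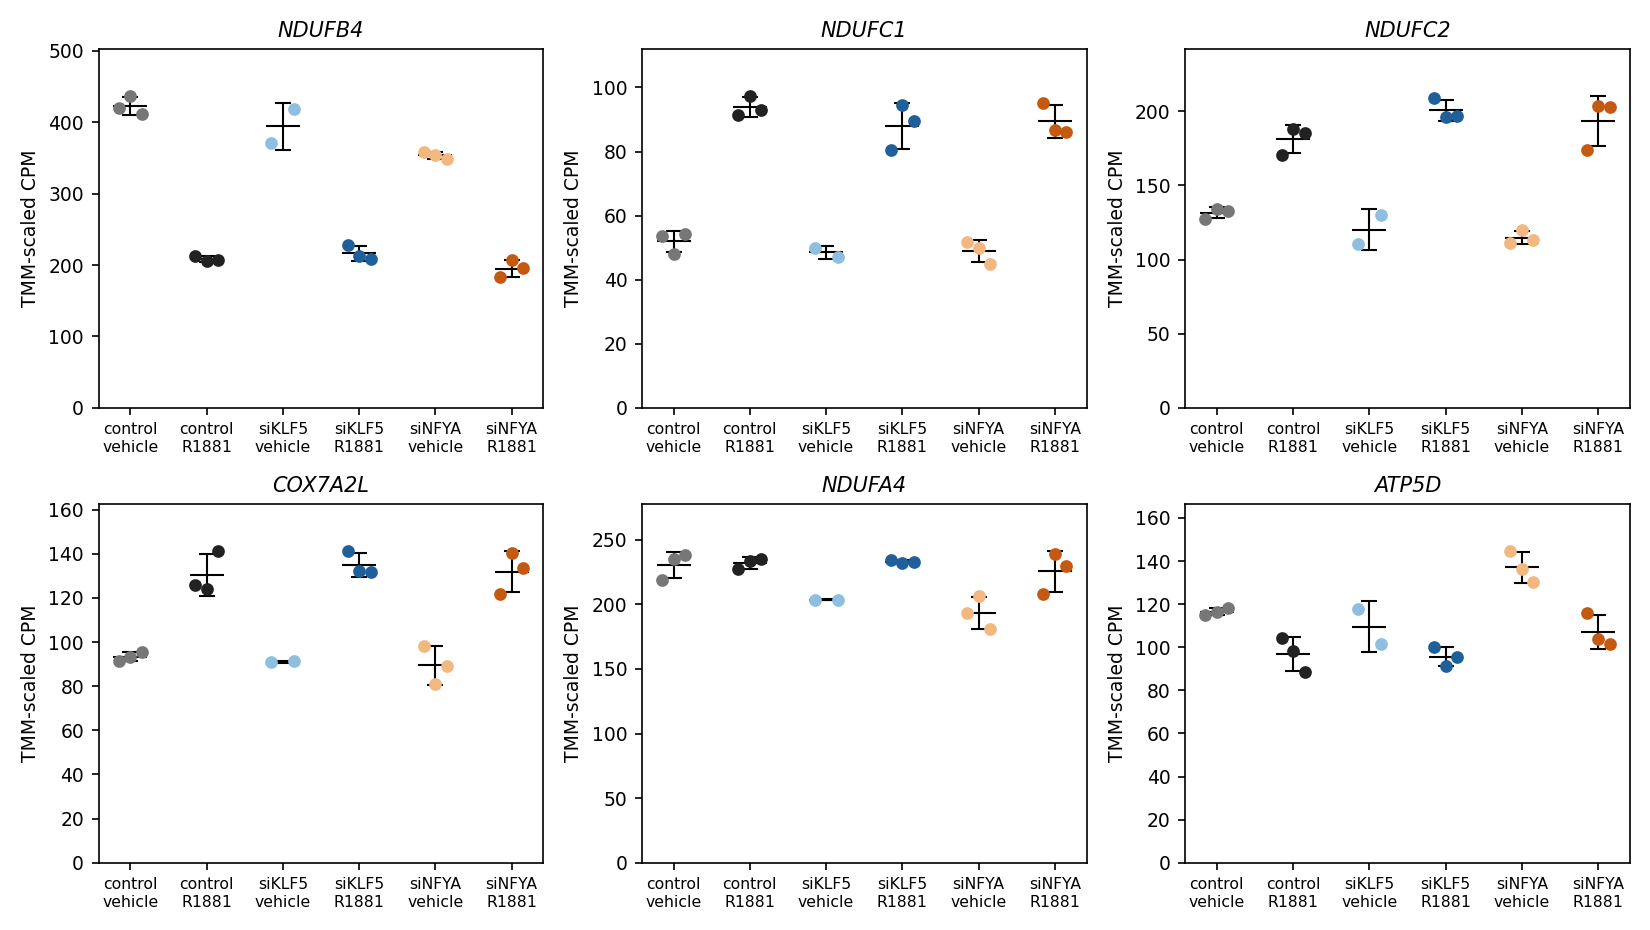
TMM-scaled CPM of 6 nuclear-encoded members by group, 1 point per library with mean and SD. NDUFB4 falls and NDUFC1, NDUFC2 and COX7A2L are higher in R1881 in all 3 arms; NDUFA4 and ATP5D are members called with siNFYA in vehicle.

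Other genes of the pathway were read from 7 lists. With siNFYA in vehicle, assembly factors had 5 higher and 1 lower of 52, coenzyme Q synthesis 3 and 0 of 13, mitochondrial import and housekeeping 6 and 1 of 27, and regulators of respiratory genes 3 and 1 of 14, beside 6.67% of all genes called higher and 6.79% lower. Mitochondrial DNA maintenance and transcription had 1 higher and 0 lower of 21, namely POLRMT, the mitochondrial RNA polymerase, with 36.8, 32.5 and 33.8 CPM against 42.3, 48.1 and 47.1 CPM (log2 0.43, adjusted p = 0.0012, edgeR). Mitochondrial RNA processing and translation had 2 and 0 of 29: FASTK (log2 0.29) and LRPPRC (0.14), which stabilises mitochondrial mRNAs. CYC1, the cytochrome c1 of complex III outside the symbol rule, also rose (0.25).

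In R1881 the same lists gave few calls with siNFYA, beside 2.63% of all genes called higher and 3.33% lower. In the list of import and housekeeping genes 0 were higher and 3 lower (DNM1L, CS and HSPA9, log2 -0.15, -0.13 and -0.12), and in the other lists measured none passed in edgeR. With siKLF5 the calls in vehicle were SSBP1, HSD17B10 and HSPE1, all lower (log2 -0.22, -0.26 and -0.21), and none in R1881. Over all genes 0.77% were called higher and 0.55% lower in vehicle, and 0.832% and 0.55% in R1881. The vehicle calls include siKLF5 vehicle replicate 3 and are not given without it. POLRMT in R1881 stood at 38.5, 35.4 and 33.3 CPM with control siRNA, 39.4, 36.6 and 33.6 CPM with siNFYA, and 34.6, 33.0 and 34.0 CPM with siKLF5, with overlap throughout.

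Many of these genes were called in R1881 against vehicle with control siRNA, as were many of all genes. NDUFAF4, an assembly factor of complex I, stood at 66.6, 69.1 and 78.9 CPM in vehicle and 17.7, 20.6 and 22.2 CPM in R1881 (log2 -1.83, adjusted p = 2.17e-15, edgeR). DNM1L, the dynamin-like GTPase of mitochondrial fission, rose from 96.9, 99.0 and 102 CPM to 270.3, 265 and 285 CPM (log2 1.46). TFAM, which packages mitochondrial DNA and takes part in its transcription, was named for its role after its values were seen. It stood at 126, 137 and 123 CPM against 99.7, 93.0 and 94.0 CPM (log2 -0.44, adjusted p = 3.17e-07, edgeR). Over all genes 32.1% were called higher and 30.8% lower. By list, the calls with TMM were 4 higher and 9 lower of 21 for DNA maintenance and transcription (median -0.25), 18 and 9 of 52 for assembly factors, 6 and 8 of 29 for RNA processing and translation, and 13 and 6 of 27 for import and housekeeping. Regulators of respiratory genes had 8 and 3 of 14, among them HIF1A (log2 1.00) and MYC (-0.93), coenzyme Q synthesis 4 and 5 of 13, and the list of subunits outside the symbol rule 1 and 1 of 4. That last list includes DMAC2L, a newer name of ATP5S, which is also counted among the members by its older symbol. The DNA maintenance list had 4 higher and 12 lower with siNFYA and 4 and 8 with siKLF5. As with the subunits, these splits hold for TMM scaling.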

How the data were processed

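The LNCaP RNA-seq libraries, made with a stranded kit (NEBNext Ultra II Directional) per the labels' protocols, were analysed from deposited tables of estimated counts and of TPM. The authors made these estimates per transcript, and the deposited values also include rows per gene. FastQC, Trimmomatic, kallisto, DESeq2 and GRCh38 are named in the submitters' processing notes. Their versions, the use of strand in counting and the selection of RNA were not given in the sources used here. Totals of 4416653 to 6872421 estimated counts a library limit the precision for low genes.

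Estimated counts of the deposited gene rows were rounded to whole numbers and tested with edgeR 4.0.16 in R 4.3.3 (filterByExpr, TMM, quasi-likelihood test, Benjamini-Hochberg adjustment over all genes tested, threshold 0.05). Alternatives were DESeq2 1.42.0, limma 3.58.1 on log2(TPM + 1), no filter, library totals, TMM without mitochondrial genes, the compared groups alone, and leaving out each library. Shares of all genes called are given for the main edgeR fit with TMM only. The fit was tested on simulated data. Tables and figures used Python 3.11.15, pandas 2.3.3 and matplotlib 3.10.9.

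Members were chosen by symbol, without pseudogene symbols (MT-ATP6 and MT-ATP8 were kept, although they end in P and a digit) and without 8 genes under 10 summed counts. Members and lists were chosen with earlier results of these data known. All mitochondrial members, isoform pairs and, in each comparison, the 3 largest called rises and falls with a mean of at least 5 CPM were named, and from each list at most 2 genes of smallest adjusted p. COX7B, COX7B2, ATP5B, SDHA, ATP5L, UQCRH, TFAM and POLRMT in R1881, and the third called gene of a list, were added after their values were seen. One siKLF5 vehicle sample and the mitochondrial rRNAs and tRNAs were not analysed here. Some marker genes are not reported here.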

Additional observations from a re-analysis of the deposited data

Results flagged for a closer look

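The androgen response of 8 mitochondrial mRNAs differed between siNFYA and control siRNA by a test of the difference itself (edgeR interaction, adjusted p under 0.05), beside 0.333% of all genes called higher and 0.389% lower. DESeq2 called 10 of the 13 and limma on log2(TPM + 1) called 0, and leaving out single libraries gave 1 to 12 calls with edgeR. The differences on the log2 scale were 0.36 for MT-CO2, 0.35 for MT-CO3, 0.35 for MT-CYB and 0.32 for MT-ND1. They were 0.31 for MT-ND2, 0.31 for MT-ND4, 0.43 for MT-ND4L and 0.37 for MT-ND5. In each the change with R1881 was lower with control siRNA than with siNFYA. The remaining 5 members were above 0 as well and did not pass.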

How the results depend on the processing

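With library totals in place of TMM, 53 nuclear-encoded members were called for R1881 with control siRNA, without a share of all genes to set beside them. The median of the nuclear-encoded members turned to -0.19 (-0.10 on the log2(TPM + 1) scale with limma). With siNFYA the nuclear median turned to -0.14 and -0.081 under these settings, and with siKLF5 to -0.11 and -0.074. The mitochondrial median for R1881 with siNFYA turned to -0.11 and -0.053. Single genes of that arm turned under library totals: MT-CO1 -0.14, MT-CO3 -0.12, MT-CYB -0.082, MT-ND1 -0.20, MT-ND2 -0.19, MT-ND4 -0.10, MT-ND4L -0.065, MT-ND5 -0.072 and MT-ND6 -0.046. On the TPM scale MT-CYB turned to -0.033, MT-ND1 to -0.15, MT-ND4 to -0.049 and MT-ND5 to -0.029. With siKLF5 MT-ATP6 was -0.21 under library totals, and MT-ATP8 ranged from -0.32 without siKLF5 vehicle replicate 2 to 0.38 without replicate 3. The limma setting changes the measure and the test as well as the scaling, and the cause was not tested.

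Counts of mitochondrial members called moved as follows. For R1881 with siNFYA they were 1 with DESeq2, 9 with no filter and 2 with limma, and with siKLF5 7 with no filter and 1 with library totals. For siKLF5 in vehicle they were 0 with limma. The interaction with siNFYA gave 13 with no filter and 0 with limma, and that with siKLF5 13 with no filter. The direct comparison of knockdowns in vehicle gave 1 with no filter. The cause was not tested.

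Counts of nuclear-encoded members called were 24 for R1881 with siKLF5 and 3 for siNFYA in vehicle, both with limma. For siKLF5 in vehicle they were 11 with no filter, 2 with TMM without mitochondrial genes, and 0 with library totals, limma or the compared groups alone. With no filter they were 3 in the interaction with siNFYA, 1 in that with siKLF5, and 2 between the knockdowns in R1881. Between the knockdowns in vehicle they were 2 with DESeq2, 8 with no filter, 0 with limma and 1 with the compared groups alone. Against the median in place of the sum of nuclear-encoded TPM, the ratio was 175 and 138 with control siRNA (vehicle and R1881), 264 and 249.4 with siKLF5, and 242 and 255 with siNFYA. The order of knockdown above control groups held.

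Leaving out 1 library at a time gave the following ranges of mitochondrial and nuclear-encoded calls. For R1881 they were 11 to 13 and 21 to 29 with control siRNA, 0 to 9 and 27 to 38 with siNFYA, and 0 to 12 and 29 to 42 with siKLF5. For siNFYA they were 12 to 13 and 3 to 5 in vehicle, and 13 to 13 and 0 to 2 in R1881. The 7 nuclear-encoded calls in vehicle became 4 without control replicate 1 or siNFYA replicate 1, and 3 without control replicate 2 or siNFYA replicate 3. For siKLF5 they were 5 to 13 and 0 to 14 in vehicle, and 13 to 13 and 0 to 0 in R1881. For the interactions they were 1 to 12 and 0 to 6 with siNFYA (6 without siNFYA R1881 replicate 1), and 0 to 12 and 0 to 2 with siKLF5 (2 without siKLF5 vehicle replicate 3). Between the knockdowns they were 0 to 1 and 0 to 19 in vehicle, and 0 to 0 and 0 to 2 in R1881. In vehicle 1 was left without siNFYA replicate 1 or 2, and 2 without replicate 3. The ratios ranged from 1.502 to 1.66 in control vehicle, 1.27 to 1.33 in control R1881, 2.09 to 2.80 and 2.17 to 2.53 with siKLF5, and 2.29 to 2.40 and 2.35 to 2.41 with siNFYA. No paired analysis was possible because the numbers in the titles differ for every sample.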
